A study of Sus scrofa with 35 samples.

Results

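The immediate early genes FOS, FOSB, JUN, JUNB, JUND, EGR1, ATF3, IER2, IER3 and DUSP1 were described in whole blood of pigs kept in thermoneutral (TN) or heat stress (HS) conditions. A probe belonged to the set when the gene name on the array, in capitals, was one of these 10 symbols. By this rule 12 of the 60305 probes of the array were members, and they stood for 7 of the 10 genes (FOS with 5 probes, DUSP1 with 2, and JUN, JUNB, EGR1, ATF3 and IER3 with 1 each). FOSB, JUND and IER2 had no probe under these names. The array held 45222 distinct gene names in all. Of the 12 probes, 10 were among the 39072 probes of the deposited log2 table; those of EGR1 and IER3 were not, and their values were recomputed from the scanner files.

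The blood came from 35 castrated male growing pigs raised in Guadeloupe, with 1 array for each. They were Creole (CR), Large White (LW) or F1 pigs of the cross between both breeds. In each breed TN pigs were kept at 24 °C, and HS pigs were labelled with 30 °C while the protocol text gives 32 °C for 5 d. Groups held 6 pigs, except CR TN with 5. All were offered 1 commercial diet at will, and blood was taken at slaughter into tubes that stabilise RNA. Slaughter of the TN pigs preceded the heat exposure, so climate and day of slaughter cannot be told apart. According to the methods, littermates were divided between the climates. Litter, pen, sire and dam are not labelled and could not enter the tests, so p-values measure the spread between these pigs. In whole blood, fewer cells of a type and less RNA per cell cannot be told apart either.

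Immediate early genes are transcribed within minutes of a stimulus, because the factors that switch them on (SRF with ELK proteins, CREB and others) are already present and need only phosphorylation by MAP kinases. FOS and JUN proteins pair to form the transcription factor AP-1, JUNB and ATF3 join the same family of dimers, and EGR1 is a zinc finger factor. DUSP1 is a phosphatase that removes the activating phosphates of MAP kinases, and IER3 modulates survival signals. Their messengers are unstable, and in blood they are known to respond to handling, stress hormones and inflammation.

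Some probe sequences matter for how the values below can be read. The first is the FOS probe A_72_P441284, the only 1 of the 12 probes whose accession was held by the pig RefSeq table. The second is the run of 21 bases shared by 3 other FOS probes, which therefore measure 1 stretch of the messenger. The third is a probe named C-JUN on the array, which the name rule leaves out although its accession is that of pig JUN. The last pair is the JUNB probe as deposited and its reverse complement, with the start codon ATG (CAT on the deposited strand) in capitals.

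FOS, probe A_72_P441284: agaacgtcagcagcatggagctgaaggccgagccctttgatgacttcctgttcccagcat
FOS, run shared by A_72_P205307, A_72_P596714 and O9115: gttctgacattaacagttttc
JUN, probe A_72_P178031 (named C-JUN): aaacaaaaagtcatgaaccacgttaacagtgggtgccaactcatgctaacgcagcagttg
JUNB, probe O11588 as deposited: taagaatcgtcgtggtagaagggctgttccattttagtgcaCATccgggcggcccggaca
JUNB, probe O11588, reverse complement: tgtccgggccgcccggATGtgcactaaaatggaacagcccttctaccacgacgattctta

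The reverse complement of the JUNB probe held an ATG at base 17, which opened 14 codons, itself included, without a stop to the end of the probe. From general knowledge this reads as the start of the JUNB coding sequence, so the deposited strand is the opposite of the messenger, whereas the FOS and C-JUN sequences read in the direction of the messenger. No pig transcript was used here, and which RNA the JUNB probe bound was not tested. Probes A_72_P205307 and O9115 shared 57 of their 60 bases. By contrast, A_72_P441284 and the member probe of JUN, O12244, shared no run longer than 7 and 6 bases with the other probes of their gene. The FOS probe A_72_P670145 likewise shared no run longer than 8 bases with another FOS probe, and the longest run shared by both member probes of DUSP1 was 7 bases.

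The members were mostly dim. The DUSP1 probes were well above background on all 35 arrays. FOS probes were so on 26 to 33 arrays, JUN on 30, ATF3 on 26 and JUNB on 19. EGR1 reached this level on 4 arrays and IER3 on 1. All levels given here are log2 intensities of a single probe; they were compared between pigs, and no probe was set against another.

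In the comparison of HS with TN over the 3 breeds, 4 of the 10 member probes in the table passed an adjusted p of 0.05 (limma with breed as a covariate), against 34.8% of all probes tested. At an unadjusted p of 0.05 there were 5 members, where 46% of all probes were below it. The JUNB probe was higher in HS, where 20.1% of all probes were. FOS (A_72_P441284), JUN (O12244) and DUSP1 (A_72_P162971) were lower, where 14.7% of all probes were. The median difference of the 10 probes was −0.11 on the log2 scale, and that of all probes was 0.06. The share of members called was thus near that of the whole array.

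FOS had 5 probes, and they differed in what they showed. On A_72_P441284 the 5 CR TN pigs were at 5.56, 5.75, 5.84, 5.88 and 6.10, and CR HS pigs ranged from 5.19 to 5.93 with a median of 5.41. F1 TN pigs ranged from 5.40 to 5.83 (median 5.63) and F1 HS pigs from 5.21 to 5.80 (5.45). LW TN pigs ranged from 5.40 to 5.81 (5.72) and LW HS pigs from 4.98 to 5.67 (5.24). HS pigs were thus lower in each breed, with overlap in all 3, and 16 of the 18 HS pigs lay below the TN mean of their breed. The difference was −0.30 ± 0.07 (SE) on the log2 scale (0.81-fold, adjusted p = 0.0035). It was −0.35 in CR, −0.17 in F1 and −0.37 in LW pigs. The probe was well above background in 16 of 17 TN and 10 of 18 HS pigs. Within the 5 slides the difference was negative in 4 and 0.01 in the other.

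The other 4 FOS probes did not pass the threshold. On A_72_P205307, CR TN pigs were at 5.56, 5.84, 5.95, 6.24 and 6.64, and CR HS pigs ranged from 5.77 to 6.47 with a median of 6.14. In F1 pigs TN values ran from 5.52 to 7.01 (median 5.78) and HS values from 5.76 to 6.87 (6.06). In LW pigs they ran from 5.69 to 6.51 (5.88) in TN and from 5.27 to 5.67 (5.54) in HS. All 6 LW HS pigs lay below all 6 LW TN pigs. The share of all probes that did so was not computed, and 8.71% of all probes had an unadjusted p under 0.05 in LW pigs. Over the breeds the difference was −0.07 (95% confidence interval −0.33 to 0.18, adjusted p = 0.667). In LW pigs alone it was −0.46 ± 0.21, which did not pass the adjustment over all probes (adjusted p = 0.564). A second entry on the array with the same 60 bases, not a member by name, did not show this separation. Its LW values overlapped between climates, from 5.54 to 6.27 in TN and from 5.28 to 5.75 in HS. It differed by −0.17 ± 0.22 in LW pigs (adjusted p = 0.802) and by −0.01 over the breeds (adjusted p = 0.957). The 3 remaining member probes of FOS differed by −0.05 to −0.11 over the breeds, and by −0.13 to −0.36 in LW pigs.

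**Figure D1:**
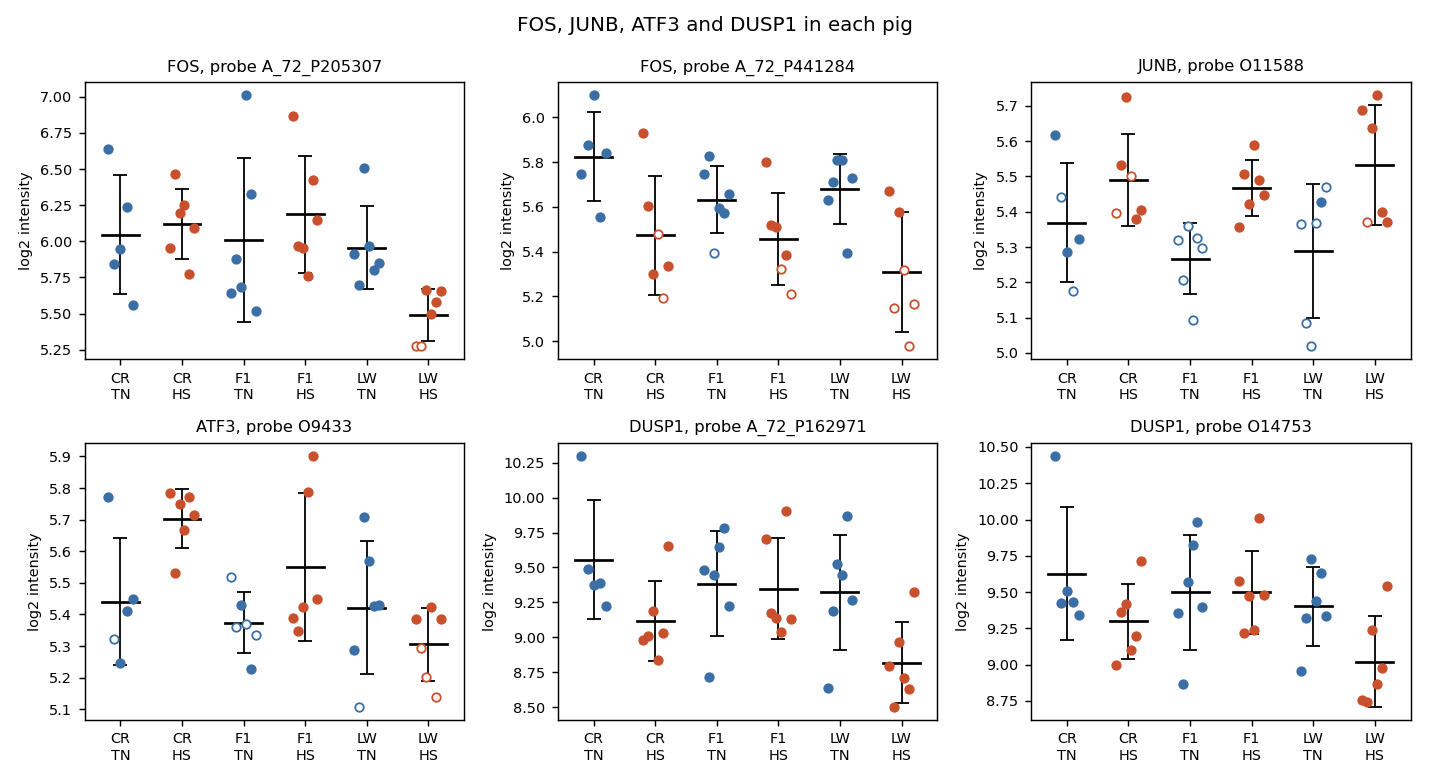
Log2 intensity (vertical axis) of FOS, JUNB, ATF3 and DUSP1 probes in each pig, by breed and climate (horizontal axis; blue TN, red HS). Filled points were well above background and open points were not; black lines give the group mean and SD. On FOS A_72_P205307 all LW HS pigs (5.27 to 5.67) lie below the LW TN pigs, and the open points of JUNB are mostly TN pigs. A second entry with the bases of A_72_P205307, not shown, overlaps between climates in LW pigs. How many of all probes separate the climates in LW pigs was not computed.

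The FOS probes were then compared pig by pig after the mean of each group had been subtracted. The 4 probes other than A_72_P441284 rose and fell together, with r of 0.82 to 0.94 over the 35 pigs in 6 pairs (largest adjusted p = 3.5e-05 over 14 pairs of probes, permutation within groups). A_72_P670145, which shares no long run with the others, was among them (r of 0.82 to 0.86). A_72_P441284 stood apart from them, with r of −0.07 to 0.28 in 4 pairs, the smallest adjusted p of which was 0.156. The probe that passed the threshold and the 4 that did not therefore ranked the pigs differently. The highest F1 TN pig on A_72_P205307, at 7.01, was at 5.59 on A_72_P441284, below the mean of its group.

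JUN gave opposite results on the probes annotated with it. On the member probe O12244, CR TN pigs were at 5.67, 5.73, 5.75, 5.91 and 6.88, of which the highest stood apart, and CR HS pigs ranged from 5.24 to 6.40 (median 5.54). F1 TN pigs ranged from 5.98 to 6.54 (6.46) and F1 HS pigs from 4.90 to 5.78 (5.57), without overlap. How many of all probes separated these groups was not computed, and 38.7% of all probes passed the threshold within F1 pigs. LW TN pigs ranged from 5.72 to 6.20 (5.89) and LW HS pigs from 5.53 to 6.07 (5.74). HS pigs were lower by 0.45 ± 0.12 (log2 difference −0.45, 0.73-fold, adjusted p = 0.0056), and 15 of 18 lay below the TN mean of their breed. The difference was negative within all 5 slides, between −0.57 and −0.29.

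The probe named C-JUN, A_72_P178031, was chosen for description after its values were seen. There CR TN pigs were at 10.78, 11.24, 11.39, 11.49 and 11.49, and CR HS pigs ranged from 10.95 to 12.03 with a median of 11.62. F1 TN pigs ranged from 10.79 to 11.81 (11.23) and F1 HS pigs from 11.26 to 12.17 (11.40). LW TN pigs ranged from 11.09 to 11.59 (11.39) and LW HS pigs from 11.30 to 11.79 (11.63), so the climates overlapped in each breed. HS pigs were higher by 0.26 ± 0.10 (1.20-fold, adjusted p = 0.0341), and 16 of 18 lay above the TN mean of their breed. A second entry on the array with the same 60 bases gave 0.25 ± 0.09 (adjusted p = 0.0377), and the r between both entries over the 35 pigs was 0.96. Both were higher within all 5 slides. The call of A_72_P178031 was lost without any 1 of 7 pigs (CR TN 4, F1 TN 1 and 4, LW TN 2, CR HS 3 and 5, F1 HS 4), with differences of 0.22 to 0.25 and adjusted p of 0.0507 to 0.0653. Group-centred values of O12244 and A_72_P178031 showed an r of −0.15 (rho −0.09, adjusted p = 0.677), so no common variation of these JUN probes was detected.

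The genes most like O12244 over the 35 pigs, by the r of group-centred values, were SLC16A6 (0.93), TRIM46 (0.92) and MMP16 (0.92). SLC16A6 is a solute carrier and MMP16 a membrane metalloproteinase. In HS their log2 differences were −0.51 ± 0.15, −0.38 ± 0.13 and −0.64 ± 0.17. The accession of O12244 was not among those of the pig RefSeq table.

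**Figure D2:**
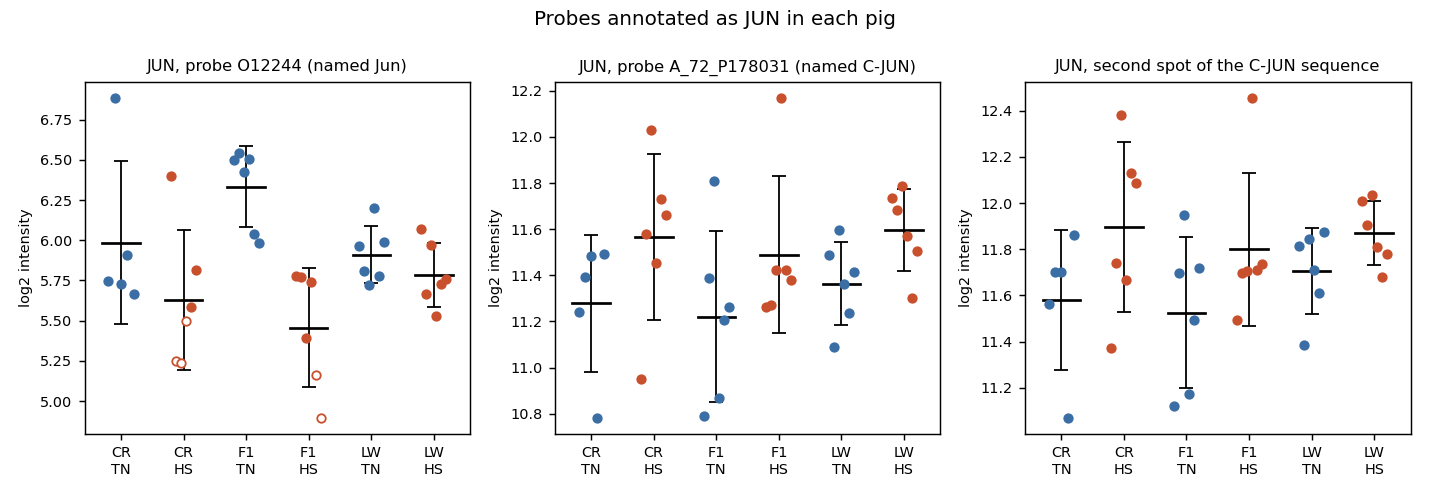
Log2 intensity (vertical axis) of the 3 probe entries annotated as JUN in each pig, by breed and climate (blue TN, red HS; filled points well above background; lines give mean and SD). F1 HS pigs (4.90 to 5.78) lie below F1 TN pigs on O12244, whereas on both entries of the C-JUN sequence HS means lie above TN means in each breed. How many of all probes separate the climates in F1 pigs was not computed.

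The JUNB probe was the member probe called as higher in HS, and it reads as the opposite strand of the messenger. Its values therefore need not measure JUNB messenger. On O11588 the CR TN pigs were at 5.17, 5.29, 5.32, 5.44 and 5.62, and CR HS pigs ranged from 5.38 to 5.72 (median 5.45). F1 TN pigs ranged from 5.09 to 5.36 (5.31) and F1 HS pigs from 5.36 to 5.59 (5.47), and LW TN pigs from 5.02 to 5.47 (5.37) and LW HS pigs from 5.37 to 5.73 (5.52). Each of the 18 HS pigs exceeded the mean of the TN pigs of its breed, although the ranges overlapped in each breed. The difference was 0.19 ± 0.05 (1.14-fold, adjusted p = 0.0077), at 0.12 in CR, 0.20 in F1 and 0.24 in LW pigs. Within slides it ranged from −0.01 to 0.44 and was positive in 4 of 5. The difference within F1 pigs, 0.20 ± 0.09 (1.15-fold), did not pass the threshold (limma, adjusted p = 0.0824). In F1 pigs the probe was well above background in none of 6 TN and in all 6 HS pigs. Over all breeds it was so in 4 of 17 TN and 15 of 18 HS pigs. F1 TN arrays were dimmer as a whole, with a mean of 60.0% of probes well above background against 65.1% on F1 HS arrays. How many other probes changed in this way was not computed, and the part of brightness in these counts was not tested. All values of O11588 carry the doubt on the strand of this probe given with its sequence.

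ATF3, a stress-induced factor that can repress AP-1 sites, was measured by O9433. CR TN pigs were at 5.25, 5.32, 5.41, 5.45 and 5.77, and CR HS pigs ranged from 5.53 to 5.78 (median 5.73). F1 pigs ranged from 5.23 to 5.52 (5.37) in TN and from 5.35 to 5.90 (5.44) in HS. LW pigs ranged from 5.11 to 5.71 (5.43) in TN and from 5.14 to 5.42 (5.34) in HS. CR and F1 means were thus higher in HS and the LW mean was lower. Over the breeds the difference was 0.10 (95% confidence interval −0.03 to 0.23, adjusted p = 0.218). Without the LW pigs it was 0.22 (limma, adjusted p = 0.0376), where 11281 of 39072 probes passed. This was the only 1 of 12 other settings in which ATF3 passed. The difference was 0.06 without F1 pigs (adjusted p = 0.679) and 0.03 without CR pigs (adjusted p = 0.807).

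EGR1 and IER3 were near background. EGR1 (O11761) was well above background in none of 17 TN and in 4 of 18 HS pigs, of which 2 were CR and 2 F1. Its values ranged from 4.81 to 5.30 in TN and from 4.79 to 5.40 in HS. In the fit of all 60305 probes on recomputed values the difference was 0.12 ± 0.06 (adjusted p = 0.136), and 14 of 18 HS pigs lay above the TN mean of their breed. IER3 (O4815) ranged from 4.71 to 5.71 in TN and from 4.71 to 5.18 in HS, with a difference of −0.02 (95% confidence interval −0.14 to 0.11, adjusted p = 0.900). For IER3 a further probe found by accession differed by −0.05 (adjusted p = 0.491). A further probe described as FOSB, outside the table, differed by −0.13 ± 0.07 (adjusted p = 0.179).

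DUSP1 was well above background in every pig on both probes. On A_72_P162971 the CR TN pigs were at 9.23, 9.37, 9.39, 9.49 and 10.3, and CR HS pigs ranged from 8.84 to 9.66 (median 9.02). F1 pigs ranged from 8.72 to 9.79 (9.46) in TN and from 9.04 to 9.90 (9.16) in HS. LW pigs ranged from 8.64 to 9.87 (9.36) in TN and from 8.50 to 9.33 (8.75) in HS. The groups overlapped in each breed, and 14 of 18 HS pigs lay below the TN mean of their breed. The difference was −0.32 ± 0.12 (0.80-fold, adjusted p = 0.0357), and it was negative within all 5 slides.

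The second DUSP1 probe, O14753, ran parallel to the first (r = 0.91, adjusted p = 2e-05) and differed by −0.23 (95% confidence interval −0.46 to −0.01), which did not pass (adjusted p = 0.0952). The mean of both probes differed by −0.28 ± 0.11 (adjusted p = 0.0517 over 30408 genes). In CR pigs the probes gave −0.44 and −0.33, in F1 pigs −0.04 and 0.00, and in LW pigs −0.50 and −0.38. A further entry with the same 60 bases as O14753, not a member by name, did not pass either. It differed by −0.21 ± 0.11 over the breeds (limma, adjusted p = 0.124). The call of A_72_P162971 was lost without any 1 of 9 pigs (CR TN 1, F1 TN 4 and 5, LW TN 4 and 5, CR HS 5, LW HS 2, 4 and 5), with differences of −0.32 to −0.27 and adjusted p of 0.0504 to 0.0622. O14753 gained the call without F1 TN 2 (−0.28, adjusted p = 0.0374) or F1 HS 5 (−0.27, adjusted p = 0.0498).

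**Figure D3:**
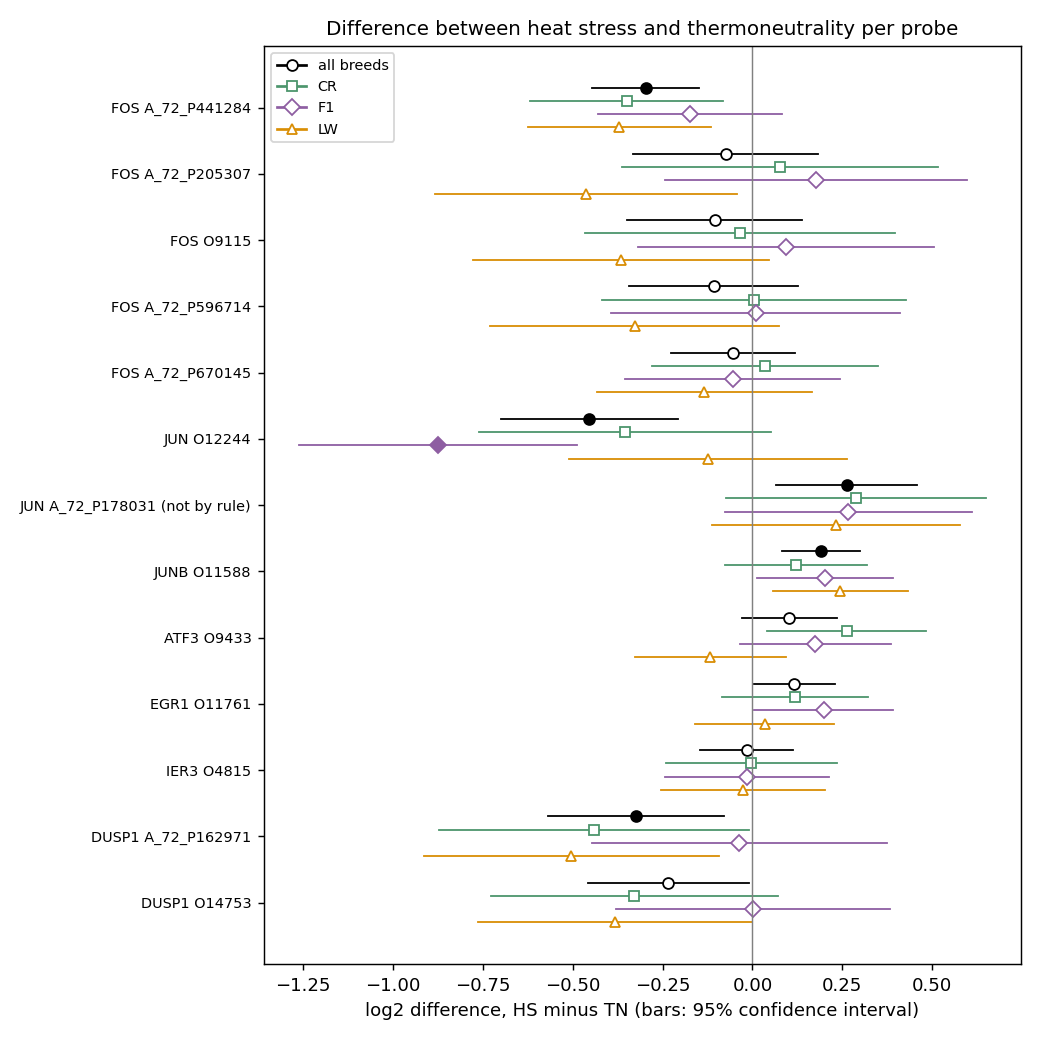
Log2 difference between HS and TN (horizontal axis) for each member probe and for the C-JUN probe, over all breeds (black circles) and within CR (squares), F1 (diamonds) and LW (triangles), with 95% confidence intervals; filled symbols had an adjusted p under 0.05. EGR1 and IER3 come from the fit of recomputed values. JUN O12244 (−0.45) and the C-JUN probe (0.26) lie on opposite sides of 0, and within breeds JUN O12244 in F1 pigs (−0.87) is the filled symbol.

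Within F1 pigs 1 of the 10 member probes passed, JUN O12244, with −0.87 ± 0.19 (0.55-fold, adjusted p = 0.00097), where 38.7% of all probes passed, 20.8% as higher and 17.9% as lower in HS. Within CR and within LW pigs no member passed, and neither did any other probe (0% in both). At an unadjusted p of 0.05, limma gave 3 members in CR pigs, 2 in F1 and 5 in LW, where 8.87%, 48.9% and 8.71% of all probes were below it. The 5 in LW pigs were FOS A_72_P205307 and A_72_P441284, JUNB and both DUSP1 probes. On processed, background-subtracted intensity the F1 difference of O12244 was −2.23 (adjusted p = 0.0019). It was −0.41 (adjusted p = 0.310) on the deposited values with the brightness of the array as a covariate. That brightness, the 75th percentile of the processed intensity, was 112 to 186 in F1 TN and 172 to 266 in F1 HS arrays; its part in the result was not tested further.

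No member passed the test of the interaction between breed and climate, and none of all probes did (0%). At an unadjusted p of 0.05 there were 2 members, JUN O12244 and ATF3, where 14.9% of all probes were below it. The effect of HS on O12244 in F1 minus that in LW pigs was −0.75 ± 0.27 (adjusted p = 0.127). The calls within breeds do not show, then, that any member responded differently between breeds.

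Between breeds, with climate as a covariate, no member passed. CR minus LW called 1.08% of all probes, F1 minus CR 0.184% and F1 minus LW 0.0256%. At an unadjusted p of 0.05, below which were 10.1%, 4.95% and 4.48% of all probes, there were 3 members in CR minus LW (FOS A_72_P596714 with 0.39 ± 0.14, FOS A_72_P205307 with 0.37 ± 0.16 and ATF3 with 0.22 ± 0.08), 0 in F1 minus CR, and 4 in F1 minus LW. The latter were the same FOS probes, with 0.40 ± 0.14 and 0.37 ± 0.15, and both DUSP1 probes, with 0.30 ± 0.15 and 0.29 ± 0.13. LW pigs thus had the lowest group means of these FOS and DUSP1 probes, in HS, by differences that did not hold after adjustment.

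Whether members varied together from pig to pig was tested with 1 probe per gene, the one with the highest mean, in 10 pairs. FOS (A_72_P205307) and DUSP1 (O14753) had an r of 0.60 and a rho of 0.60 after group means were removed (p = 0.00071 and 0.00037, adjusted p = 0.0071 and 0.0037, permutation within groups). Without the 2 pigs farthest from the FOS median r was 0.65, with slide also removed 0.67, and within the 4 slides of 6 or more arrays it ranged from 0.51 to 0.77. With the erythroid and neutrophil marker means removed it was 0.74. The FOS probe called in HS, A_72_P441284, had an r of 0.07 with A_72_P205307 and was not tested against DUSP1. The other 9 pairs did not pass. Next came ATF3 with DUSP1 (r = 0.35, rho = 0.19, adjusted p = 0.305) and JUNB with ATF3 (r = 0.24, rho = 0.26, adjusted p = 0.526), and the lowest was JUN with DUSP1 (r = −0.30, rho = −0.29, adjusted p = 0.442).

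**Figure D4:**
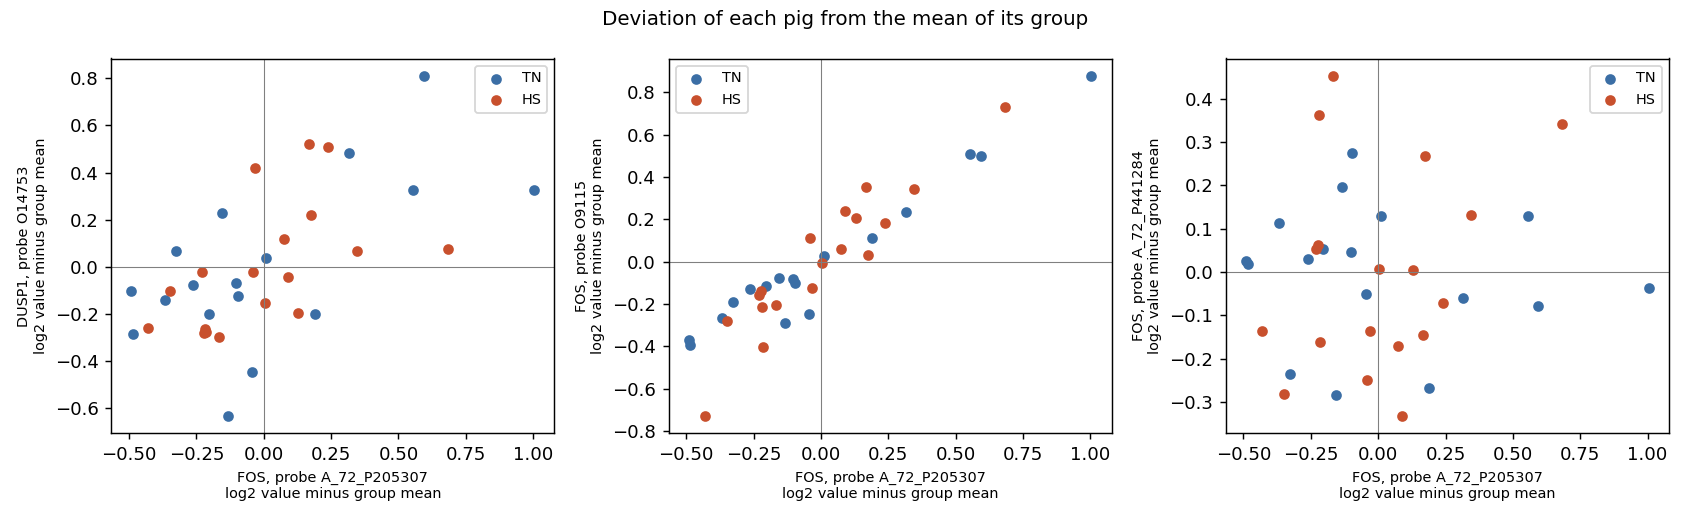
Deviation of each pig from the mean of its group on the log2 scale, for FOS A_72_P205307 (horizontal axes) against DUSP1 O14753, FOS O9115 and FOS A_72_P441284 (vertical axes); blue points are TN and red points HS pigs. The points of FOS and DUSP1 rise together (r = 0.60), those of the overlapping FOS probes lie close to a line (r = 0.94), and those of FOS A_72_P441284 form a cloud (r = 0.07).

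The genes whose group-centred values were most like FOS probe A_72_P205307 over the 35 pigs were GADD45A, a growth arrest gene (r = 0.83), TOP1, a topoisomerase (0.75), and DNAJB6, a co-chaperone (0.74). They differed between HS and TN by −0.25 ± 0.12, −0.06 ± 0.09 and −0.14 ± 0.10, none past the threshold. For DUSP1 they were GYG1 (0.79), GPAT3 (0.78) and NFKBIA (0.75), the inhibitor of NF-kB, measured by a probe that differed by 0.01 ± 0.12. These values share arrays, depth of signal and cell mixture, and are given as a description.

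Other genes of the pathway were taken from lists. Among 25 other primary response genes in the table, 3 rose in HS, 7 fell and 15 did not pass, where 20.1% of all probes were higher and 14.7% lower. The list thus held more fallers than risers, unlike all probes, which was not tested. The median difference was −0.05, against 0.06 for all probes. Those with the smallest p among the fallers were KLF4 (−0.63 ± 0.16, adjusted p = 0.0035), the nuclear receptor NR4A2 (−0.75 ± 0.19, adjusted p = 0.0038) and EGR3 (−0.35 ± 0.10, adjusted p = 0.0070). NFKBIA (another probe than above, 0.27 ± 0.08), KLF6 (0.30 ± 0.09) and the antiproliferative BTG2 (0.19 ± 0.07) were those that rose.

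Upstream of the members, 5 of 18 MAP kinase and SRF-ELK genes rose, 3 fell and 10 did not pass (median 0.09), where 20.1% of all probes were higher and 14.7% lower. SRF, which binds the promoters of FOS and EGR1, rose by 0.36 ± 0.09 (adjusted p = 0.0053), its partner ELK1 by 0.22 ± 0.06 (adjusted p = 0.0091) and the kinase RPS6KA1 by 0.26 ± 0.08. MAPKAPK2, a kinase downstream of p38, fell by 0.68 ± 0.16 (log2 difference −0.68, adjusted p = 0.0028), MAPK3 differed by −0.23 ± 0.08 and MAP2K3 by −0.15 ± 0.06. Of 10 other DUSP phosphatases, DUSP16 rose (0.19 ± 0.05, adjusted p = 0.0075) and DUSP7 and DUSP5 fell (−0.28 ± 0.08 and −0.37 ± 0.14). Of 8 AP-1 partners and relatives, MAFG fell (−0.33 ± 0.11, adjusted p = 0.0198) and 7 did not pass.

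The calls over the 3 breeds depended on the F1 pigs. Without them no probe of the array passed, and the differences were −0.36 for FOS A_72_P441284 (adjusted p = 0.183), −0.23 for JUN O12244 (0.361), 0.19 for JUNB (0.238) and −0.47 for DUSP1 A_72_P162971 (0.188). With all breeds they were −0.30, −0.45, 0.19 and −0.32, so only that of JUN O12244 was clearly smaller without F1 pigs. JUNB also missed the threshold without LW pigs (0.16, adjusted p = 0.0571), and DUSP1 without CR pigs (−0.27, 0.157) or without LW pigs (−0.23, 0.236). On recomputed values without a filter DUSP1 had an adjusted p of 0.0525.

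Some markers of blood cells differed with climate as well, where 20.1% of all probes were higher and 14.7% lower in HS. Of 17 erythroid markers in the table, 9 fell in HS, 1 rose and 7 did not pass, with a median of −0.72. Their mean log2 level per pig ranged from 10.5 to 11.9 in CR TN, 9.84 to 11.6 in CR HS, 10.6 to 12.8 in F1 TN, 9.28 to 11.2 in F1 HS, 10.9 to 11.9 in LW TN and 10.3 to 11.5 in LW HS. With the erythroid mean as a covariate, 2 of all probes and no member passed. The differences were then −0.26 for FOS A_72_P441284 (adjusted p = 0.124), −0.29 for JUN O12244 (0.219), 0.13 for JUNB (0.208) and −0.45 for DUSP1 A_72_P162971 (0.120). After group means were removed, no member or C-JUN probe correlated with the erythroid or neutrophil mean past the threshold (24 pairs; r from −0.43 to 0.38, smallest adjusted p = 0.160). Neutrophil markers, with 1 of 10 lower and 9 not past the threshold, had a median of −0.31. With their mean as a covariate the 4 members still passed (adjusted p from 0.0063 to 0.0261). Of the T cell, B cell, monocyte, NK and platelet lists, 1 of 10, 3 of 7, 2 of 7, 0 of 9 and 0 of 7 rose, and 3 NK markers fell.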

How the data were processed

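Whole blood RNA was measured on 1-colour 60-base porcine arrays read with Agilent Feature Extraction 10.10.1.1, per the file headers. The authors deposited raw and processed intensity values for each array, not normalized between arrays, and a table of log2 values obtained from median intensities that were quantile normalized and filtered by a rule not given in the sources used here. The log2 table was used as deposited (39072 probes). For EGR1, IER3 and FOSB, median intensities were quantile normalized and log2 transformed here (r = 0.99997 with the deposited values; 217 outlier spots left out). Array brightness (75th percentile) ranged from 112 to 329, which limits precision for dim probes.

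Groups came from the sample labels. The methods describe littermates shared between climates, but no label names the litter, so pigs were not paired. Fits used limma 3.58.1 (lmFit, eBayes) in R 4.3.3 with breed and climate, or the 6 group means, and Benjamini-Hochberg adjustment over all probes (0.05). The script was tested on simulated data. Correlations used group-centred values and 100000 permutations within groups (Python 3.11.15). The 5 slides were tested as batches. Every member probe was described; from each pathway list, up to 3 genes per direction with the smallest p, and the 3 genes most like FOS, JUN and DUSP1, were named (EGR1 was left out of the latter, being outside the table). Members and lists were chosen with earlier results of these data known. Gene symbols of other probes came from the array, updated through NCBI tables. Alternatives covered values, background correction, scaling, filters, slide, array weights, marker and brightness covariates, and breeds or pigs left out.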

Additional observations from a re-analysis of the deposited data

Results flagged for a closer look

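In each of the 6 groups the highest and the lowest pig were compared with the others of the group for all 12 member probes. Of 72 groups tested, 5 held a pig that stood apart by Dixon's criterion; chance flags about 5% of groups. On DUSP1 the same CR TN pig stood apart on both probes, at 10.3 on A_72_P162971 (others 9.23 to 9.49) and at 10.4 on O14753 (others 9.34 to 9.51). On FOS 1 LW TN pig was high on the overlapping probes, at 6.51 on A_72_P205307 (others 5.69 to 5.97) and at 6.32 on O9115 (others 5.56 to 5.84). On JUN O12244 another CR TN pig was at 6.88 (others 5.67 to 5.91). The causes were not tested.

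EGR1, which lies outside the deposited table, was well above background in 4 HS pigs and in no TN pig.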

How the results depend on the processing

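Over the 3 breeds 4 of 10 member probes were called in HS minus TN. The count was 1 of 2 members among probes well above background on all arrays, 0 with the erythroid mean as a covariate, 0 without F1 pigs and 2 of 5 genes with the probes of a gene averaged. Without F1 pigs 0 probes of the array were called, against 12551 without CR and 11281 without LW pigs; the cause was not tested. Leaving out each pig in turn gave 3 to 5. Within CR pigs the count went from 0 to 1 with array weights (FOS A_72_P441284, −0.44, adjusted p = 0.0468), and leaving out pigs gave 0. Within F1 pigs it went from 1 to 2 with recomputed values, with normexp, with scaling on the 75th percentile and without a filter, in each by JUNB (adjusted p from 0.0208 to 0.0417). It went to 0 with array brightness as a covariate. It was also 0 on probes well above background on all arrays, but that filter removes JUN O12244 (30 of 35 arrays), so its call was not tested there. Leaving out pigs gave 1 within F1 pigs. The counts within LW pigs, between breeds, between HS effects and for the interaction stayed at 0, also without single pigs. On processed, background-subtracted intensity the differences were −1.03 for FOS A_72_P441284, −1.21 for JUN O12244 (−2.23 within F1 pigs) and 0.58 for JUNB, all past the threshold, and −0.30 for DUSP1 A_72_P162971 (adjusted p = 0.0678). In HS minus TN, 107 of 122 values of the member probes under other settings kept their side of the threshold, 13 lost and 2 gained the call. The 6 that changed sign, with the erythroid covariate or without LW pigs, belonged to the 4 FOS probes that passed in no setting. The C-JUN probe lost its call in 6 of 13 settings and without 7 of the 35 pigs, with differences between 0.16 and 0.31. The FOS and DUSP1 pair passed under the 4 alternatives for correlations. No paired analysis was possible because the labels carry neither replicate numbers nor litters. Dimness limits all members but DUSP1.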
